A study of Mus musculus with 60 samples.

Results

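The immediate early genes are a set of genes whose transcription starts within minutes of a stimulus and needs no newly made protein. Expression of 9 of them was followed in the mouse kidney around the clock: Fos, Fosb, Jun, Junb, Egr1, Ier2, Atf3, Dusp1 and Zfp36. They were taken by name from a fixed list, and each matched 1 of the 55335 gene rows that every library holds. The RNA-seq libraries at hand are from 60 male mice on a C57BL/6J background. The labels call the samples renal tubule, and the study's methods describe pieces of frozen kidney. The study had kept these mice from a larger set, judged on RNA integrity and on how far a sample lay from its replicates in plots of the transcriptome, so the spread between mice given here is that of a set from which outlying mice had been removed. Control mice were Bmal1lox/lox littermates, and cKOt mice were Bmal1lox/lox/Pax8-rtTA/LC1 animals, in which doxycycline switches on Cre in Pax8-expressing tubule cells so that Bmal1 (Arntl), an activator of the circadian clock, is deleted there. Mice of both genotypes carried the floxed alleles and drank doxycycline, at 2 mg/ml with 20 mg/ml sucrose, for 2 weeks from the age of 8 weeks. Per the study's methods, the kidneys were collected 4 weeks after doxycycline had ended. Cells outside the tubule keep Bmal1 in the cKOt mice. Kidneys were taken at zeitgeber times (ZT, hours after lights on) 0, 4, 8, 12, 16 and 20, with 5 mice in each of the 12 genotype-by-time groups, so that each genotype had 30 mice. Per the study's methods, all mice received ketamine and xylazine anaesthesia and a PBS perfusion by the abdominal aorta before the kidneys were removed. The part of this handling in the levels and their spread was not tested.

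The 9 genes belong to 4 functional groups. FOS, FOSB, JUN and JUNB are basic leucine zipper proteins that pair to form the transcription factor AP-1, and ATF3 is a related, stress-induced leucine zipper factor. EGR1 is a zinc finger transcription factor, and IER2 is a small nuclear protein. DUSP1 is a phosphatase that switches off MAP kinases, and ZFP36 (tristetraprolin) binds AU-rich elements and speeds the decay of short-lived mRNAs, so that both act as brakes on the response. In many tissues these genes are induced together, through ERK and p38 MAP kinases, SRF with its ELK partners, and CREB.

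Promoter sequence is shown for Dusp1, whose level differed between genotypes, and for Fos and Junb, which belong to the most closely correlated pairs. The 250 bases before the RefSeq start site (build GRCm38.p6) were searched in 7 of the 9 genes, while Egr1 and Ier2 were not analysed here. The Dusp1 sequence as printed leaves out the last 47 bases, which overlap an exon in GENCODE M21. Capitals mark the motifs that were searched on both strands, namely the cyclic AMP response element (CRE) TGACGTCA, its core TGACG, which overlaps it, and the E-box CACGTG, the element that BMAL1 and CLOCK bind. The AP-1 site TGANTCA and the CArG box, the element of SRF, were searched as well.
Dusp1 promoter, chr17:26508520-26508722, minus strand: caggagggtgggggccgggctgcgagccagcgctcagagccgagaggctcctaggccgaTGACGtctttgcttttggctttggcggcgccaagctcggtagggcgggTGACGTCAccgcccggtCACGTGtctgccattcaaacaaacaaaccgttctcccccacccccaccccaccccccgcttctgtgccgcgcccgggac
Fos promoter, chr12:85473640-85473889, plus strand: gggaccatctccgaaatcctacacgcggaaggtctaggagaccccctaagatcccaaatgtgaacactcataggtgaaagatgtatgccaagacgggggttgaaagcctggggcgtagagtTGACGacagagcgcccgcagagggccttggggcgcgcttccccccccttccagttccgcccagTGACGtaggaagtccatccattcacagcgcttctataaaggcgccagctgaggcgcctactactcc
Junb promoter, chr8:84978749-84978998, minus strand: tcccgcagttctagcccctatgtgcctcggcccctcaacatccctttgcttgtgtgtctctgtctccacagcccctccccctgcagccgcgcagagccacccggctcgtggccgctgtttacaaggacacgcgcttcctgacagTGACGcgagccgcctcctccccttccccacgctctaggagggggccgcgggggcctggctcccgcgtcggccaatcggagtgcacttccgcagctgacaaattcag

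The Dusp1 window held a full CRE, at 143 to 136 bases before the start site, and an E-box at 126 to 121. A CRE was present in 1.55% of all 32851 promoter windows of this length and a CACGTG E-box in 6.02%, and Dusp1 was the only 1 of the 7 members with either. The core TGACG was found in 5 of the 7 members (Fos, Fosb, Junb, Atf3 and Dusp1) and in 17.8% of all windows. The match of Atf3 lies 7 to 3 bases before the start site, where its window overlaps an annotated exon. Zfp36, whose window overlaps an annotated exon throughout, held a CArG box (1.47% of all windows), and TGANTCA, present in 6.75% of all windows, was not in any of the 7. These are letter matches only, and sites farther from the start site were not searched.

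The libraries held 17791420 to 20906706 counts on genes, with like depth in both genotypes. Arntl reads were lower in every cKOt mouse than in every control mouse at ZT0 and ZT20 and higher in every cKOt mouse at ZT4, ZT8 and ZT12, with group medians of 17.5 to 24.0 CPM (counts scaled to the library total) over the day in cKOt mice and of 2.12 to 52.3 CPM in control mice. The gene-level count also covers exons outside the deleted part. Some libraries stood apart in the genes studied here. In 5 of the 60 libraries the mean deviation of the 9 genes from their group means was beyond 1.3 standard deviations, and all 5 came from cKOt mice. At ZT16 these were mouse 2, where the 9 genes were lowest (-2.40), and mouse 4, where they were highest (1.48) and which the study's sample sheet marks for removal. Mice 1 and 2 at ZT0 (-1.73 and 1.37) and mouse 1 at ZT4 (1.39) were the others. The genotype tests, the spread and the correlations between the 9 genes were also computed without these 5 libraries. Since they were picked by the deviations of the 9 genes, leaving them out narrows the spread of the same genes by construction.

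All 9 genes were detected in every mouse, at levels that spanned more than 2 orders of magnitude once scaled to exon length. Dusp1 had the highest mean level, 23.2 CPM per kilobase of exon, followed by Zfp36 at 18.1, Egr1 at 14.7 and Jun at 12.0. Fos (4.21), Ier2 (3.40) and Junb (1.90) formed a middle group. Atf3 (0.717) and Fosb (0.177) were rare, with 9 to 71 and 1 to 91 counts per library. Neighbours in this order, such as Zfp36 and Egr1 or Fos and Ier2, overlapped between mice. Dusp1 lies at chr17:26505590-26562128 (minus strand), Atf3 at chr1:191170296-191218039 (minus), Fos at chr12:85473890-85477273 (plus) and Junb at chr8:84974484-84978718 (minus) in GRCm38. On the strand of Dusp1 lie 2 small annotated genes, with 0 and 12 counts summed over all libraries. Exact levels of Jun, Junb, Atf3, Dusp1 and Zfp36 carry some uncertainty because annotated genes overlap them on the opposite strand. The libraries were stranded, but the strand setting of the counting is not given in the sources used here.

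**Figure D1:**
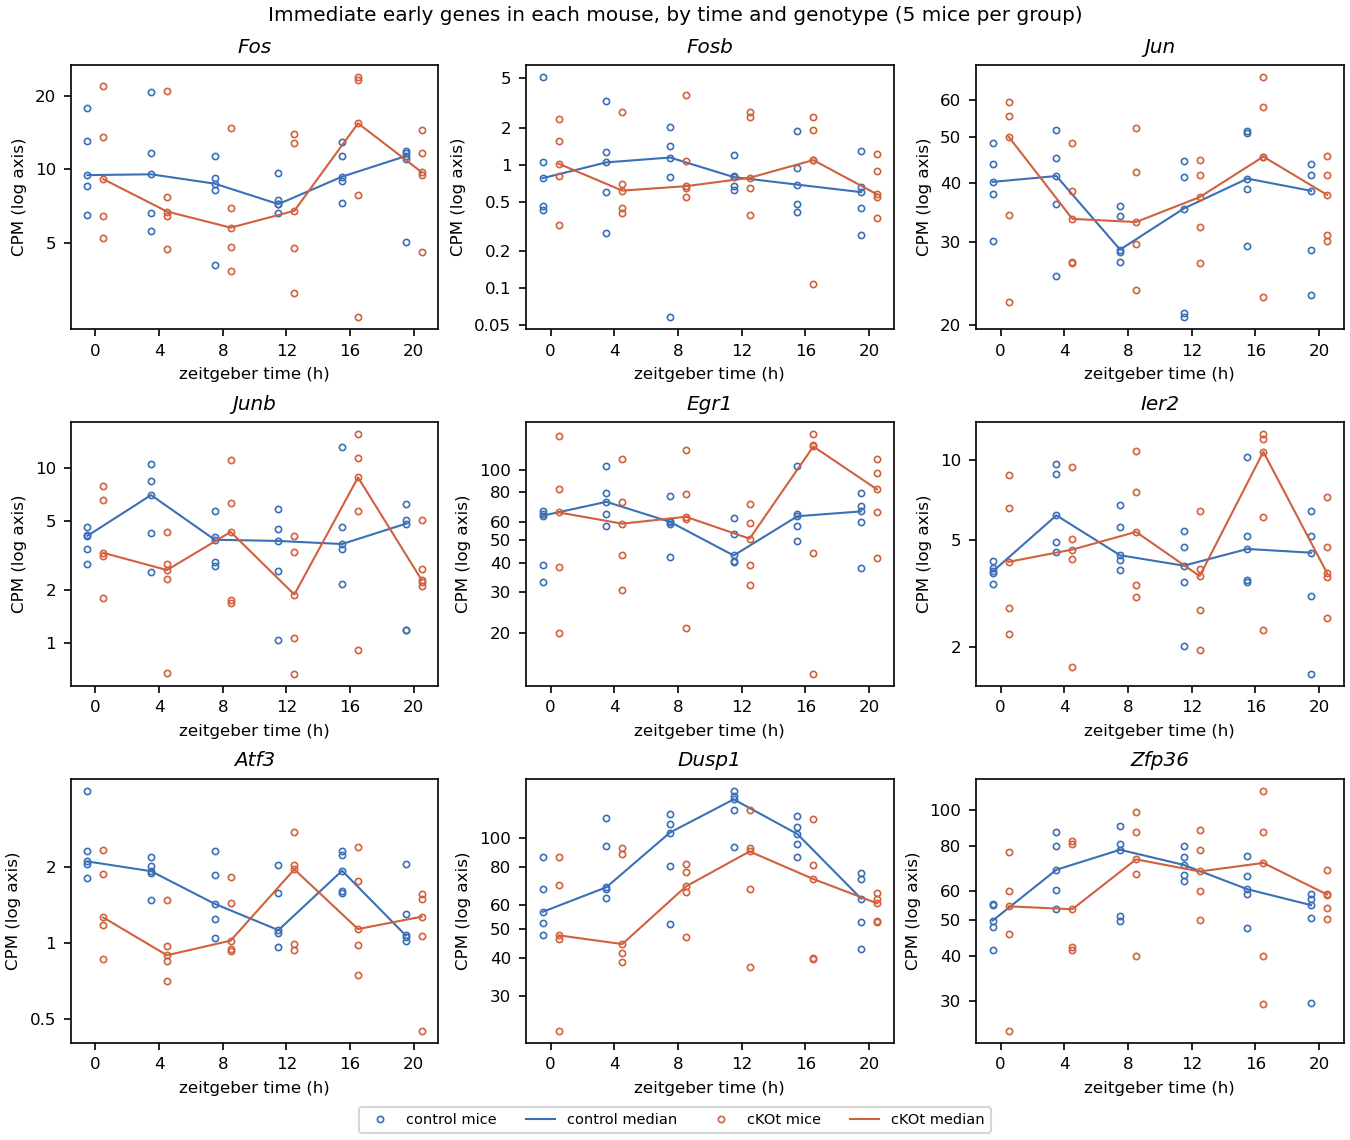
Expression of each of the 9 genes (CPM, log axis) in every mouse by zeitgeber time (h), with open circles for mice and lines through the group medians, control in blue and cKOt in orange. Dusp1 lies lower in cKOt mice over most of the day and peaks near ZT12, while Fos, Fosb, Junb, Egr1 and Ier2 scatter widely within single groups.

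To find out whether loss of Bmal1 in the tubule changed the level of these genes, the mean genotype difference over the 6 time points was tested. Dusp1 and Atf3 were lower in cKOt mice, and none of the 9 was higher. Over all 15546 genes tested, 50.0% were called in either direction, 26.8% higher and 23.2% lower in cKOt mice, so that 2 of 9 called lower is close to the background share and 0 of 9 called higher is below it. The median log2 fold change was 0.05 over the 9 genes and 0.01 over all genes. Adjusted p values here are those of the quasi-likelihood F test in edgeR, corrected by the Benjamini-Hochberg method over all genes, and a call means an adjusted p under 0.05. The 5 mice of a group are separate animals.

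Dusp1, the MAP kinase phosphatase, had a mean of 88.0 ± 29.1 CPM over the 30 control mice and of 65.8 ± 23.9 CPM over the 30 cKOt mice (± SD). At ZT12, near its daily peak, the control mice read 93.5, 124, 134, 137 and 143 CPM and the cKOt mice 37.4, 67.9, 90.1, 92.8 and 123 CPM. At ZT16 the control mice read 86.2, 95.4, 103, 108 and 118 CPM and the cKOt mice 39.8, 40.1, 73.0, 81.5 and 115 CPM. At both times 4 of the 5 cKOt mice were below every control mouse, and 1 was not. At ZT8 the control values were 51.7, 80.5, 104, 111 and 120 CPM against 46.8, 66.3, 69.0, 77.1 and 82.1 CPM, and at ZT4 they were 63.3, 67.5, 68.6, 94.0 and 116 CPM against 38.8, 41.4, 44.5, 88.3 and 92.3 CPM. At ZT0 the control mice read 47.6, 52.1, 56.9, 67.5 and 86.5 CPM and the cKOt mice 23.0, 46.1, 47.5, 69.6 and 86.2 CPM, and at ZT20 the ranges were 42.7 to 76.3 and 52.5 to 65.7 CPM. The groups overlapped at all 6 times, most at ZT0 and ZT20, the times of lowest expression. The mean log2 fold change was -0.38 (SE 0.10, 95% interval -0.59 to -0.18, adjusted p = 0.00149), a ratio of 0.767. The difference was below 0 at each of the 6 times, from -0.20 at ZT20 to -0.59 at ZT12. Without the 5 libraries that stood apart it was -0.43 (adjusted p = 0.000396). Their choice rests on deviations that include those of Dusp1, so this smaller p is no independent check.

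Atf3, the stress-induced factor, had a mean of 1.75 ± 0.617 CPM over the 30 control mice and of 1.34 ± 0.559 CPM over the 30 cKOt mice (± SD). At ZT4 the control mice read 1.48, 1.88, 1.92, 2.02 and 2.18 CPM and the cKOt mice 0.707, 0.852, 0.895, 0.975 and 1.47 CPM. This was the only 1 of the 54 gene-by-time comparisons in which the 2 genotypes did not overlap. The share of all genes without overlap is not given here, so this count has no background beside it. At ZT0 the control values were 1.81, 2.04, 2.10, 2.32 and 3.99 CPM against 0.869, 1.18, 1.26, 1.87 and 2.32 CPM. At ZT12 the order was the other way round, with control mice at 0.963, 1.09, 1.12, 1.57 and 2.03 CPM and cKOt mice at 0.940, 0.991, 1.95, 2.04 and 2.75 CPM. The mean log2 fold change was -0.37 (SE 0.12, 95% interval -0.61 to -0.12, adjusted p = 0.0111), with single times from -0.81 at ZT4 to 0.36 at ZT12. The median was 27 counts per library, and counting error at the mean count alone gives a standard deviation of 0.269 on the log2 scale. The call was lost without replicate 3 of each group (-0.29, adjusted p = 0.0892). It was kept without the 5 libraries that stood apart (-0.41, adjusted p = 0.00626), but their choice rests in part on Atf3 itself.

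Many markers of other cell types were lower in cKOt mice as well. The 5 endothelial markers were all called lower, as were 4 of 6 fibroblast and smooth muscle markers and 4 of 5 macrophage markers, with 0 higher, against 23.2% of all genes called lower. Tubule markers went both ways, with 3 lower and 2 higher of 6 in the proximal tubule, 1 lower and 3 higher of 4 in the thick ascending limb, 0 and 2 of 3 in the distal convoluted tubule, and 2 and 2 of 5 in the collecting duct. The summed level of the fibroblast and smooth muscle markers ran from 74.8 to 269 CPM in control mice (median 204) and from 104 to 222 CPM in cKOt mice (median 176). The macrophage sums were 67.9 to 129 and 75.1 to 109 CPM, and the endothelial sums 356 to 438 and 310 to 407 CPM. None of these markers was at 0 in all libraries. Podocyte markers, at 252 to 369 CPM summed over 4 genes, were called higher in 1 case and lower in 0, so the samples held glomerular RNA too. With the 3 marker sums as further covariates, Dusp1 was at -0.30 (SE 0.15, adjusted p = 0.122) and Atf3 at -0.57 (SE 0.19, adjusted p = 0.0135). In whole tissue, fewer cells of a type and less RNA per cell cannot be told apart.

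The other 7 genes did not pass the test. Their log2 fold changes were 0.05 (95% interval -0.28 to 0.38) for Fos, 0.16 (-0.39 to 0.70) for Fosb, 0.12 (-0.04 to 0.28) for Jun and -0.13 (-0.40 to 0.14) for Junb. Egr1 was at 0.18 (-0.11 to 0.47), Ier2 at 0.18 (-0.04 to 0.41) and Zfp36 at 0.04 (-0.12 to 0.21). The interval of Zfp36, the mRNA decay factor, leaves room for a change of at most 1.16-fold upward, whereas that of Fosb reaches 1.63-fold, so the same verdict rests on unequal precision. The means of Fos were 9.69 ± 3.56 (control) and 10.1 ± 6.19 CPM (cKOt), and those of Egr1 were 61.2 ± 17.0 and 70.3 ± 36.9 CPM (± SD over 30 mice). For both, the SD in cKOt mice was larger than in control mice although the means were close.

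**Figure D2:**
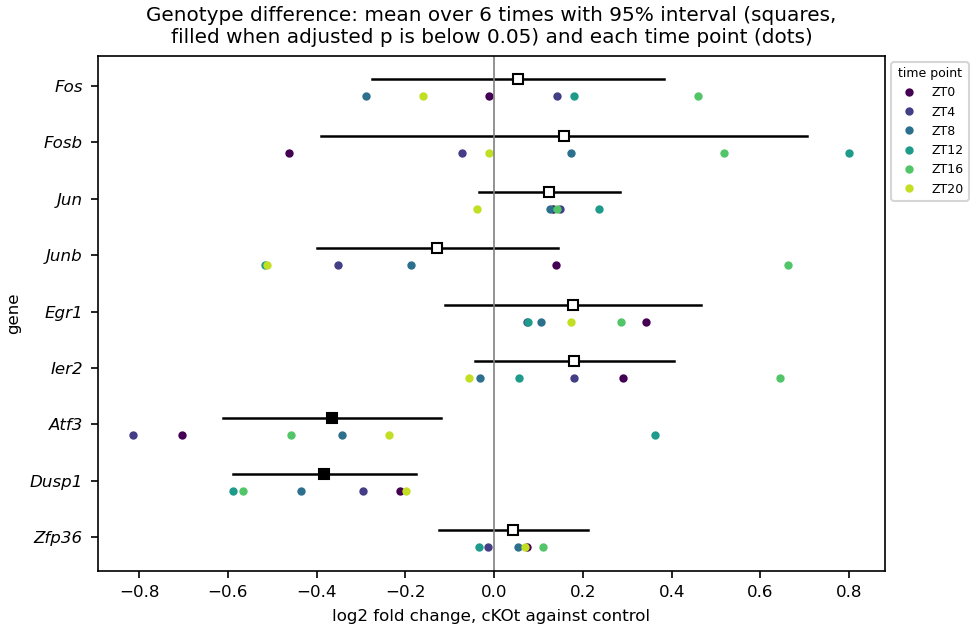
Log2 fold change of cKOt against control mice for each gene. Squares give the mean over the 6 time points with its 95% interval and are filled where the adjusted p is under 0.05, and dots give the single time points. Only the intervals of Dusp1 and Atf3 leave out 0, and the dots of Dusp1 are all below 0.

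No gene was called at a single time point. Over the 54 gene-by-time tests, 0 had an adjusted p under 0.05 and 6 had an unadjusted p under 0.05. DESeq2 gave 0 calls too, with 5 at an unadjusted p under 0.05. The share of all genes called was 12.1% at ZT0 (6.63% higher and 5.49% lower in cKOt mice), 12.5% at ZT4 (6.20% and 6.34%) and 19.9% at ZT8 (10.6% and 9.29%). It was 21.0% at ZT12 (10.3% and 10.8%), 19.8% at ZT16 (10.0% and 9.75%) and 13.8% at ZT20 (5.98% and 7.79%). The smallest adjusted p values were 0.0727 for Ier2 at ZT16, 0.0865 for Dusp1 at ZT12 and 0.0875 for Atf3 at ZT4. Ier2 at ZT16 read 3.50, 3.56, 4.64, 5.21 and 10.3 CPM in control mice against 2.31, 6.12, 10.7, 12.0 and 12.5 CPM for the cKOt mice, or 0.64 on the log2 scale (SE 0.26). Junb, its closest companion across mice, was at 0.66 (SE 0.31, adjusted p = 0.124) at the same time. Alternatives that called single time points are given under the dependence on processing. A genotype difference that varied between time points was called for none of the 9 (0 called, 0 with an unadjusted p under 0.05, by edgeR and by DESeq2, against 3.08% of all genes called), and the smallest adjusted p was 0.441 for Junb, followed by 0.466 for Atf3. Their log2 fold changes still ran from -0.52 to 0.66 and from -0.81 to 0.36 over the 6 times, and a missed threshold does not show that they were the same.

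To see whether these genes followed the time of day, differences among the 6 time points were tested within each genotype. Dusp1 was the only 1 of the 9 called in control mice (adjusted p = 0.00331), where 30.6% of all genes were called. In cKOt mice edgeR called 0 of 9, with 0 at an unadjusted p under 0.05, and DESeq2 likewise, against 26.6% of all genes called, and Dusp1 was at adjusted p = 0.239. Without replicate 2 the call in control mice was missed (adjusted p = 0.0520), and without replicate 3 Dusp1 was called in cKOt mice as well (adjusted p = 0.01215). Mean Dusp1 expression in control mice rose from 62.1 ± 15.5 CPM at ZT0 to 126 ± 19.7 CPM at ZT12 and was 61.5 ± 14.0 CPM at ZT20 (SD, n = 5). In cKOt mice the corresponding means were 54.5 ± 24.2, 82.3 ± 31.9 and 58.9 ± 5.84 CPM.

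A cosine of 24 h was also fitted in both genotypes. Each gene was assigned, where the weight by the Bayesian information criterion reached 0.65, to 1 of 5 models, which are no rhythm, rhythm in control mice only, rhythm in cKOt mice only, a shared rhythm, and rhythms that differ. Dusp1 (weight 0.811) and Zfp36 (0.921) were assigned a shared rhythm, like 25.2% of all genes. The other 7 were assigned no rhythm (weights 0.699 to 0.944), like 34.0% of all genes. Dusp1 had a peak-to-trough amplitude of 1.00 (SE 0.21) on the log2 scale in control mice with a fitted peak at ZT11.9, and of 0.52 (SE 0.21) in cKOt mice with a peak at ZT11.5. Zfp36 had amplitudes of 0.51 and 0.44 (SE 0.17 each), with peaks at ZT10.1 and ZT10.3. Its group means in control mice ran from 49.9 ± 5.68 CPM at ZT0 to 71.2 ± 6.21 CPM at ZT12 (SD, n = 5). By the F test over time, Zfp36 was at adjusted p = 0.118 in control mice. The genotype difference of Dusp1 over time, which a difference in amplitude would enter, was at adjusted p = 0.928. Without replicate 4 or without replicate 5 Dusp1 fell below the weight of 0.65, without replicate 1 so did Zfp36 and Jun, and without replicate 1, 4 or 5 so did Fos.

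The spread between mice of the same genotype and time was wide, most of all for Fosb, Junb, Fos, Egr1 and Ier2. The pooled within-group SD was 1.04 on the log2 scale for Fosb, 0.94 for Junb, 0.74 for Fos, 0.71 for Egr1 and 0.66 for Ier2. For Dusp1, Atf3, Zfp36 and Jun it was 0.47, 0.46, 0.42 and 0.41. The median over all genes was 0.196, and the 9 genes lay between the 83.2nd (Jun) and the 99.4th percentile (Fosb). Counting error gives 0.041 for Egr1, 0.106 for Fos and 0.159 for Junb, so for these 3 genes it is a small part of the spread. For Fosb it gives 0.316.

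The range within single groups was wide. In cKOt mice at ZT16, Egr1 read 13.4, 44.2, 126, 127 and 142 CPM, a ratio of 10.6 between the highest and the lowest mouse. Fos read 2.47, 7.83, 15.5, 23.3 and 24.0 CPM in the same mice, and Junb 0.912, 5.71, 8.83, 11.3 and 15.6 CPM. Control mice at that time lay between 49.7 and 104 CPM for Egr1 and between 7.26 and 13.0 CPM for Fos. The cKOt mice thus lay both below and above all controls. The lowest value of each gene came from mouse 2 and 1 of the others from mouse 4, both among the libraries that stood apart. Without mouse 2 the lowest cKOt values were 44.2 CPM for Egr1, still below the controls, and 7.83 CPM for Fos, which is within their range. For Fosb the widest group was control ZT8, with 0.058, 0.787, 1.14, 1.41 and 2.01 CPM, a ratio of 34.7 that rests on 1 count in the lowest library.

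The SD was larger in cKOt than in control mice for all 9 genes, with Fosb nearly equal. Egr1 had an SD of 0.37 in control and 0.93 in cKOt mice, a ratio of 2.51 that exceeded the ratio of 99.96% of all genes. For Zfp36 the ratio was 1.79, for Fos 1.76, for Dusp1 1.63, for Ier2 1.51 and for Atf3 1.501. Junb (1.29), Jun (1.22) and Fosb (1.01) were closer to the median ratio over all genes, which was 1.06, with 59.8% of genes above 1. The 5 libraries that stood apart were picked by the deviations of these same genes and are all of cKOt mice, so leaving them out lowers the cKOt SD by construction. Without them the ratio was 1.82 for Egr1 (98.6th percentile) and 1.35 for Fos (81.0th percentile), and for Fosb and Jun it fell to 0.757 and 0.878. The difference in spread between genotypes was not tested.

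**Figure D3:**
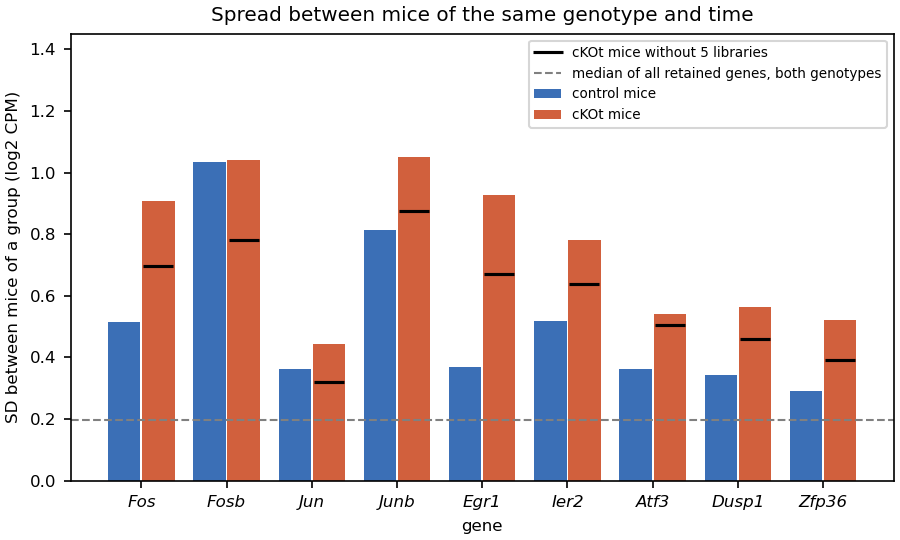
Pooled SD between mice of a group (log2 CPM) for each gene, with blue bars for control and orange bars for cKOt mice. Black marks give the cKOt value without the 5 libraries that stood apart, and the dashed line is the median SD of all genes over both genotypes (0.196). Every bar is above the line, and the gap between genotypes is widest for Egr1.

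The deviations of single mice were shared among the genes. Each gene's deviation from the mean of its group was correlated with that of each other gene over the 60 mice, with p from a 2-sided permutation test that exchanged mice within groups, adjusted over the 36 pairs. All 36 Pearson correlations were positive, with a median of 0.602 and a range of 0.300 to 0.919, and 36 had an adjusted p under 0.05. By Spearman's rho this was 35, all but Jun with Atf3. Among all pairs of the 13781 genes with a mean of at least 1 CPM, the median was -0.005. Of these pairs, 16.2% exceeded 0.300, the lowest r that passed here, and 3.07% exceeded 0.602. The points share their libraries and their normalization. Without the 5 libraries that stood apart, whose choice on these deviations lowers r by construction, all 36 were positive, with a median of 0.416, a range of 0.056 to 0.8998 and 25 adjusted p values under 0.05.

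Junb and Ier2, which lie on the same chromosome, were the closest pair (r = 0.919, rho = 0.911). Fos with Egr1 gave r = 0.874 (rho = 0.841), Dusp1 with Zfp36 r = 0.862 (rho = 0.854) and Egr1 with Zfp36 r = 0.857 (rho = 0.826). Each of these 4 had a permutation p of 1e-05 by either measure, the smallest that 100000 resamples can give. Without the 2 mice farthest from the median of the first gene, they were 0.898, 0.837, 0.851 and 0.818. Within the 6 library batches of 9 to 12 mice they ranged from 0.858 to 0.976, 0.746 to 0.967, 0.776 to 0.962 and 0.719 to 0.932. Over all pairs the median was 0.607 once batch means were removed. The brakes Dusp1 and Zfp36 thus deviated together, as did the factors Fos and Egr1. The correlations did not follow these classes throughout. Egr1 with Zfp36 crosses them at a similar r, and the factors Fosb and Junb were at 0.395. Atf3 was the loosest member, with r from 0.300 (Jun) to 0.522 (Fos), and within single batches its correlation with Junb ran from -0.661 to 0.702.

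**Figure D4:**
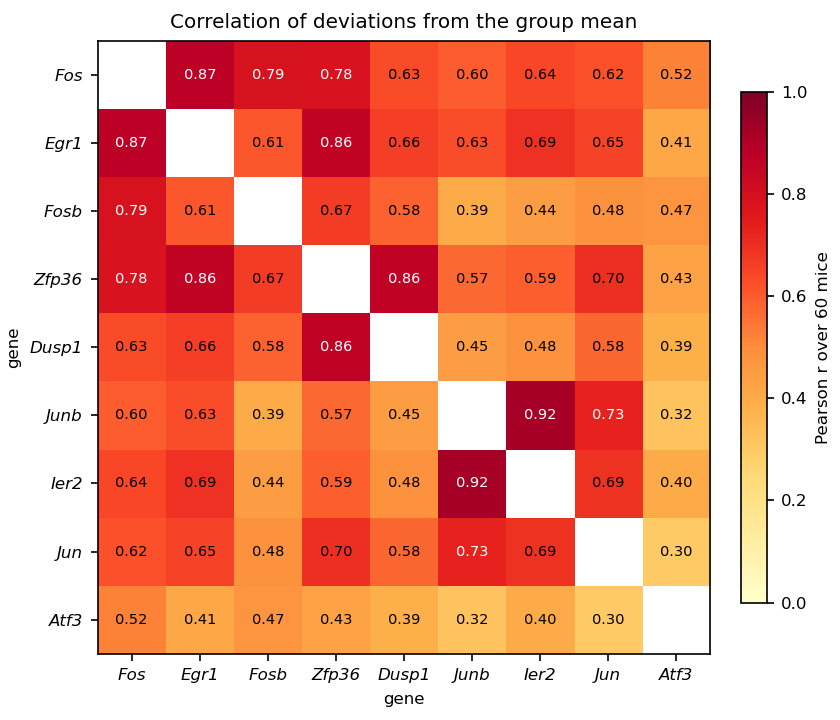
Pearson r between the deviations of each pair of genes from their group means over 60 mice, with darker colour for higher r. Junb with Ier2 (0.92), Fos with Egr1 (0.87), Dusp1 with Zfp36 (0.86) and Egr1 with Zfp36 (0.86) are highest, and the row of Atf3 is palest.

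Sample measures were compared with the same deviations. RNA integrity passed the test with none of the 9 genes (r from -0.124 to 0.088, rho from -0.125 to 0.083, lowest adjusted p 0.939 and 0.815 by permutation), nor did the count total (r from -0.081 to 0.255, rho from -0.124 to 0.251, lowest adjusted p 0.549 and 0.659). Summed markers of 8 cell types were also compared, a step added after the spread had been seen, which gave 72 relations, of which 11 had an adjusted p under 0.05. Fibroblast and smooth muscle markers rose with 7 of the 9 genes, the lowest r of the 7 being 0.456. Of all 13781 genes, 6.19% had an r at or above that. The relation was r = 0.670 for Zfp36 (rho = 0.612, adjusted p = 0.00036 by permutation), and 0.597 without the 2 mice farthest out, with 0.471 to 0.821 within batches. It was r = 0.581 for Fos (rho = 0.570, 0.498 without 2 mice, 0.333 to 0.706 within batches) and r = 0.505 for Dusp1 (rho = 0.525, 0.462 without 2 mice, 0.462 to 0.712 within batches). Egr1 was at 0.573, Jun at 0.540, Junb at 0.510 and Fosb at 0.456 (rho 0.460 to 0.540, 0.385 to 0.505 without 2 mice, 0.171 to 0.865 within batches). Ier2 passed by rho (0.413, adjusted p = 0.0264 by permutation) and not by r (0.386, adjusted p = 0.0874), and Atf3 passed by neither (r = 0.307, adjusted p = 0.160 by permutation).

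The collecting duct and endothelial sums gave 4 further relations. An r at or above the lowest that passed was found in 19.9% of all genes for the collecting duct sum and in 2.03% for the endothelial sum. Collecting duct markers rose with Junb (r = 0.699, rho = 0.692, adjusted p = 0.00036 by permutation), Ier2 (r = 0.640, rho = 0.615) and Jun (r = 0.480, rho = 0.522). Without the 2 mice farthest out these were 0.6504, 0.575 and 0.464, and within batches they ranged from 0.605 to 0.757, 0.557 to 0.744 and 0.160 to 0.716. Endothelial markers passed with Zfp36 by Pearson's r (0.460, adjusted p = 0.0304 by permutation) and missed by Spearman's rho (0.370, adjusted p = 0.0596). The part of these cell types in the results was not tested beyond the fit with marker covariates above. Junb and Ier2 also had the largest share of their within-group variance, 64.9% and 55.4%, in the 2 factors of unwanted variation that the fits remove, against a median of 24.5% over all genes. For the other 7 it was 7.94% (Atf3) to 35.8% (Jun). After removal of these factors the 36 correlations had a median of 0.549 and a range of 0.189 to 0.849. Junb with Ier2 was then at 0.818 and no longer the closest pair, below Fos with Egr1 (0.849) and Dusp1 with Zfp36 (0.837).

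**Figure D5:**
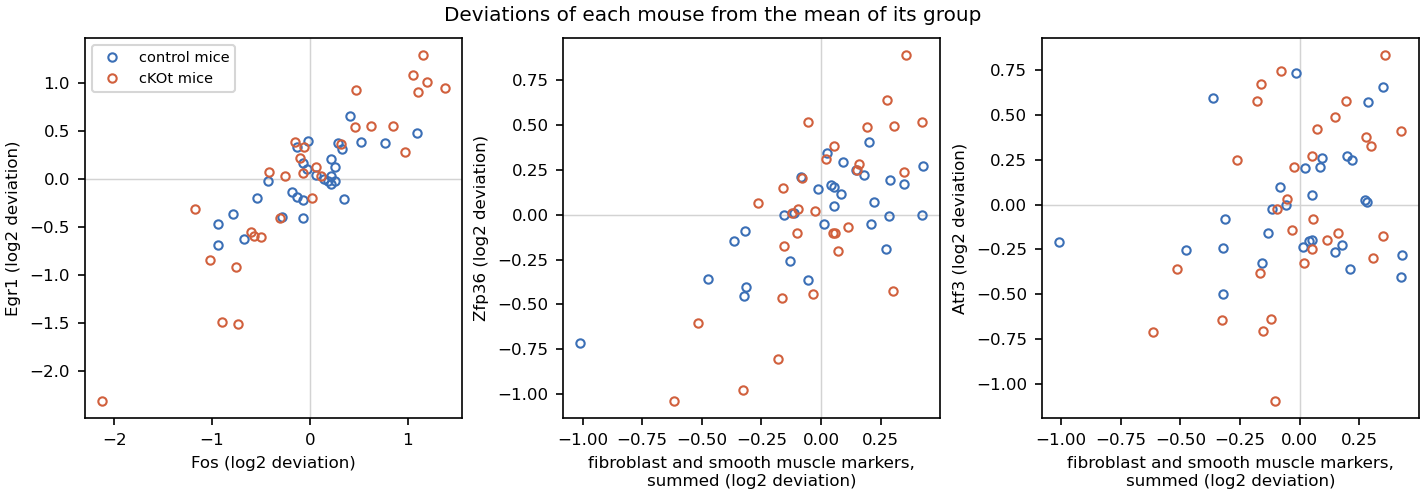
Log2 deviation of each mouse from the mean of its group, control in blue and cKOt in orange, for Egr1 against Fos and for Zfp36 and Atf3 against the summed fibroblast and smooth muscle markers. Fos and Egr1 line up (r = 0.874), with a cKOt mouse at ZT16 far below the rest, Zfp36 rises with the markers (r = 0.670), and Atf3 shows more scatter (r = 0.307).

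Other genes moved with the 9 across mice. Among 13772 further genes with a mean of at least 1 CPM, the 10 whose deviations correlated best with the mean deviation of the 9 were named. The highest were Nr4a1 (r = 0.878), an early-induced nuclear receptor, Btg2 (0.862), an early antiproliferative gene, and Rasd1 (0.834), a small GTPase gene induced by glucocorticoids. Ppp1r15a (0.781), which encodes a regulatory subunit of the phosphatase that acts on the translation factor eIF2, and the ERK inhibitor Spry1 (0.769) followed. Then came Carmn (0.726), Ripor3 (0.719), P3h3 (0.705), Tmem119 (0.692) and Arl4d (0.692). Carmn is a long noncoding RNA of smooth muscle cells. The median over all these genes was -0.012, and without the 2 mice farthest out the 10 were at 0.619 to 0.831. Of the 10, Rasd1 was higher in cKOt mice (0.47 on the log2 scale, SE 0.11, adjusted p = 0.00041), Tmem119 was lower (-0.17, SE 0.07, adjusted p = 0.0361), and the other 8 were not called.

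The rest of the early response pathway was read from lists of related genes, against the background of 26.8% called higher and 23.2% called lower. Among other AP-1 and ATF family genes, 0 of 11 retained were called higher and 4 lower, with a median log2 fold change of -0.04. Atf4, the effector of the integrated stress response, was at -0.11 (SE 0.03, adjusted p = 0.00394), Mafk at -0.12 (SE 0.04, adjusted p = 0.00558) and Atf5 at -0.16 (SE 0.05, adjusted p = 0.0139), all smaller steps than those of Atf3 and Dusp1. Atf4 also differed over time in control (adjusted p = 4.2e-06) and in cKOt mice (adjusted p = 0.0179).

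Among other early response transcription factors, 2 of 18 were higher and 4 lower (median -0.11). Myc, the growth regulator, rose from 4.91 ± 2.83 to 7.71 ± 3.64 CPM (± SD over 30 mice), or by 0.74 on the log2 scale (SE 0.12, adjusted p = 1.18e-06), and its genotype difference varied with time (adjusted p = 0.000139). For Myc the log2 fold change was 2.08 at ZT12 (adjusted p = 1.03e-06), 0.07 at ZT16 (adjusted p = 0.903) and -0.70 at ZT20 (adjusted p = 0.125). The Krüppel-like factors Klf6 and Klf4 fell, by 0.28 (adjusted p = 2.86e-07) and 0.26 (adjusted p = 0.0002) on the log2 scale. Id2 was at 0.10 (adjusted p = 0.0225) with a difference that varied in time (adjusted p = 0.0498), higher in cKOt mice at ZT8 (0.32, adjusted p = 0.0105) and lower at ZT20 (-0.28, adjusted p = 0.0397). Klf2 was at -0.06 (adjusted p = 0.449) with a difference over time in control mice (adjusted p = 0.00145).

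Early response signalling and growth genes held 4 called higher and 8 lower of 26 (median -0.15). Sik1, a CREB-induced kinase, had the largest step, from 68.6 ± 15.5 to 34.1 ± 8.07 CPM (± SD over 30 mice), or -0.98 on the log2 scale (SE 0.05, adjusted p = 2.19e-23). Plk2 fell by 0.48 (adjusted p = 8.29e-16), and Ier5, a relative of Ier2, rose by 0.75 (adjusted p = 2e-16) with a genotype difference that varied in time (adjusted p = 0.0169). Sgk1, the glucocorticoid- and aldosterone-induced kinase, was at 0.21 (adjusted p = 0.0198). Its difference ran from 0.69 at ZT8 (adjusted p = 0.00613) to -0.35 at ZT16 (adjusted p = 0.195). Its variation in time just missed the threshold (adjusted p = 0.0516).

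The MAP kinase phosphatases, Sprouty proteins and ZFP36 relatives are the nearest kin of Dusp1 and Zfp36, and 2 of 18 were higher and 8 lower (median -0.12). Dusp8 fell by 0.54 (adjusted p = 2.87e-08), Dusp7 by 0.22 (adjusted p = 4.28e-07) and Dusp3 by 0.19 (adjusted p = 5.5e-09) on the log2 scale. Dusp7 was assigned rhythms in both genotypes with a fitted control peak at ZT10.7, near that of Dusp1. Zfp36l1, a paralog of Zfp36, rose by 0.28 (adjusted p = 7.88e-09) and its difference varied with time (adjusted p = 0.0026), while Zfp36 was at adjusted p = 0.999 in that test. Spred2 was at 0.08 (adjusted p = 0.0277).

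Upstream of the 9 genes, 11 of 23 kinases and SRF, ELK and CREB factors were called higher and 2 lower (median 0.04). Mapkapk2, the p38 effector kinase that phosphorylates ZFP36, rose from 110 ± 17.4 to 149 ± 11.6 CPM (± SD over 30 mice), by 0.47 on the log2 scale (SE 0.02, adjusted p = 1.06e-23), with a difference that varied in time (adjusted p = 2.6e-06). Mapk14, which encodes the main p38 kinase, fell by 0.16 (adjusted p = 1.43e-08). The SRF coactivator gene Mrtfb rose by 0.21 (adjusted p = 1.88e-06). Creb1 was at -0.02 (adjusted p = 0.659) and differed over time in control (adjusted p = 9.21e-08) and in cKOt mice (adjusted p = 5.16e-09).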

How the data were processed

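The 60 libraries, stranded and poly(A)-selected from 200 ng of kidney RNA, are those the study kept from a larger set of mice by RNA integrity and distance from the other replicates. The authors' deposited files hold raw counts per Ensembl gene, 1 file per mouse. Per the labels and the submitters' processing notes, bcl2fastq, cutadapt 1.8, STAR 2.5.3a and HTSeq 0.9.1 were used with GRCm38. Rows that name no gene were left out. Of all reads in the files, 24.3% to 29.4% were not uniquely aligned, 5.19% to 7.87% fell in no feature and 0.708% to 0.927% were ambiguous. Symbols and coordinates come from GENCODE M21.

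A gene was kept when any library held 1 CPM or more of it, which left 15546. Counts were fitted with edgeR 4.0.16 (R 4.3.3), TMM library sizes, the 12 groups and 2 RUVs factors, which are estimated from differences among replicates. The study also used RUVs, with limma on log2 CPM for mean differences, which is an alternative here. The contrasts were the mean genotype difference, each time point, its variation in time, and time within each genotype. Cosine models and correlations used log2 CPM with a prior count of 2, the cosine models after removal of the RUVs factors. DESeq2 1.42.0, limma 3.58.1, other filters and scalings, library batch, a replicate block and leaving out mice were tried. The fits were tested on simulated counts. Files of the same group were compared, and all pairs differed by more than sampling noise. The 95% intervals use the SE and a t quantile.

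Genes named beside the 9 are, per pathway list, the 3 of smallest p for genotype and the 3 for time in control mice (mean of 1 CPM or more), and the 10 best correlated with the mean deviation of the 9. The members and lists were chosen with earlier results of these data known, and the marker correlations, the spread by genotype and 2 alternatives (without 5 libraries, marker covariates) after seeing the data. Library batch and RNA integrity came from the study's sample sheet. Replicate numbers do not pair mice (mean correlation of deviations 0.00433 over 330 pairs with the same number).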

Additional observations from a re-analysis of the deposited data

Results flagged for a closer look

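In 14 of 108 groups of 5 mice, 1 mouse lay far from the other 4 (gap to its neighbour over the range above 0.71). This limit flags about 1 in 20 groups, or 5%, when values are normally distributed. Here it was applied to CPM on the linear scale. The share over all genes is not given, so no excess over chance can be read from the 14. For Fos these were the highest mouse of control ZT12 (9.63 CPM), the lowest of control ZT20 (5.04 CPM, the next at 11.1) and the highest of cKOt ZT4 (21.0 CPM, the next at 7.70) and cKOt ZT8 (14.8 CPM). For Fosb they were the highest mice of control ZT0 (5.12 CPM, the next at 1.05), cKOt ZT4 (2.69 CPM) and cKOt ZT8 (3.69 CPM). Junb stood out in control ZT16 (13.3 CPM) and cKOt ZT20 (5.02 CPM), Egr1 in control ZT16 (104 CPM, the next at 64.8) and Ier2 in control ZT16 (10.3 CPM). Atf3 stood out in control ZT0 (3.99 CPM) and control ZT20 (2.04 CPM), and Zfp36 was low in 1 mouse of control ZT20 (29.7 CPM). The same mouse gave more than 1 of these in 5 groups, namely control ZT16 (Junb, Egr1, Ier2), control ZT20 (Fos, Zfp36), control ZT0 (Fosb, Atf3), cKOt ZT4 (Fos, Fosb) and cKOt ZT8 (Fos, Fosb). Since the 9 genes are correlated across mice, these flags are not independent.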

How the results depend on the processing

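Dusp1 and Atf3 were called lower in cKOt mice under DESeq2, limma-trend, both other filters, other scalings, 0 or 1 RUVs factors, library batch and without the library marked for removal, and Dusp1 without each replicate in turn. Leave-one-out gave 1 or 2 genes called by genotype, 0 or 1 over time in control mice, 0 to 2 over time in cKOt mice and 0 to 2 at single times. Single times had 1 call under limma-trend (Dusp1, ZT12), without RUVs factors or with batch in their place (Atf3, ZT4) and without the marked library (Dusp1, ZT16). Without RUVs factors, 1 gene (Junb) differed over time in cKOt mice. There were 2 alternatives chosen after seeing the data. Leaving out the 5 libraries that stood apart gave 2 calls over time in control mice (Dusp1 and Zfp36) and 2 at single times (Atf3 at ZT4, Ier2 at ZT16). These libraries were picked by the deviations of the same genes. Leaving them out narrows the spread by construction, so the added calls are no independent check. At ZT16 the cKOt group lost mouse 2, with its lowest Ier2 value (2.31 CPM), and mouse 4, with its highest (12.5 CPM). The share of all genes called in this fit is not given. Marker covariates left 1 genotype call (Atf3) and gave 2 over time in control mice. Fos, never called, changed sign under limma-trend (-0.0634), with batch (-0.0242), without the 5 libraries (-0.0555) and under leave-one-out (-0.135 to 0.158, below 0 also at -0.00887). Fosb (-0.162 to 0.527) and Zfp36 (-0.0467 to 0.0884) did so without replicate 4, and Ier2 with marker covariates (-0.00259). The cause of these changes was not tested. Over all genes, 479 varied in their genotype difference, 263 without RUVs factors, 312 with batch and 233 to 429 under leave-one-out, which tests fewer mice, and 4142 differed over time in cKOt mice, 2608 to 3375 under leave-one-out.

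Adding the replicate block, 2 of the 9 genes and 7734 genes in all were called by genotype, and the block changed no call of the 9. The median log2 fold change of all genes was 0.0124 with TMM and 0.00218 with DESeq2's size factors. Low counts limit Atf3 and Fosb.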

Other observations

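Within genotypes, some pairs of genes were correlated in cKOt mice and not in control mice. Fosb with Junb had r = -0.019 over the 30 control mice and 0.718 over the 30 cKOt mice, and Fosb with Ier2 had -0.001 and 0.750. For Junb with Ier2 the values were 0.869 and 0.948, and for Fos with Fosb 0.7995 and 0.825. The difference between genotypes was not tested, and the 5 libraries that stood apart were all in the cKOt groups. Rasd1 differed over time in cKOt mice (adjusted p = 0.0362) and was at adjusted p = 0.490 in control mice, and Spry1 differed over time in control mice (adjusted p = 0.00518) and was at adjusted p = 0.119 in cKOt mice, by edgeR's quasi-likelihood test. By the same test, a genotype difference that varied in time was called for neither (adjusted p = 0.466 for Rasd1 and 0.627 for Spry1).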
